A study of Mus musculus with 2 samples.

Results

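The regulatory T cell genes described here were 7 of the 32285 genes in the deposited count files, taken by symbol: Foxp3, Il2ra, Ikzf2, Ikzf4, Il2rb, Nt5e and Itgae. They were read by single-cell RNA sequencing (scRNA-seq) in 5849 T, NK and B cells of a control IgG library and 4687 of an Activin A neutralizing antibody library. Female C57BL/6 mice of 6 to 8 weeks had a peritoneal abrasion and were given syngeneic p53-/-, myc, Hras ovarian cancer cells intraperitoneally. From the day after, they received daily intraperitoneal injections of control IgG (7 mice by the labels) or of an antibody that neutralizes Activin A (8 mice by the labels) for 10 days. Both groups shared the abrasion, the cancer cells and the injections. Tumors from the abrasion site were pooled within each group, dissociated and loaded without selecting a cell type. The study's text gives these numbers of mice for an abrasion experiment with both treatments, but another number for its single-cell experiment, and another number of days. Each group was 1 library of pooled mice, so no difference below has a replicate check, no p-value is given, and treatment, handling and sequencing cannot be told apart.

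The control IgG library held 98174850 unique molecular identifiers (UMIs, each a counted RNA molecule) and the antibody library 74117462. After filters on genes, UMIs and mitochondrial share, 8770 and 6386 cells remained, with medians of 4728 and 4132 UMIs in T, NK and B cells. Cells were sorted into 10 T, NK and B classes by marker panels that held no member, and 19 barcodes occurred among the kept cells of both libraries, 1 of them in the same class. In CD4 T cells (699 and 571), the 7 T panel genes summed to 5486 and 5108 UMIs per 1000000 (CPM), the 5 NK panel genes to 24.7 and 23.8, and the 12 myeloid panel genes to 79.6 and 49.9. Intervals are exact Poisson 95% intervals for CPM, exact Clopper-Pearson intervals for shares and conditional binomial intervals for ratios. Each interval allows for counting error alone, and where a few cells hold many of a gene's UMIs it is too narrow.

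Regulatory T cells are CD4 T cells that restrain immune responses, and the transcription factor Foxp3 sets up and maintains their program. They bind the growth factor interleukin 2 with high affinity through CD25, the product of Il2ra, together with the beta chain encoded by Il2rb and a shared gamma chain; the signal passes through STAT5. Helios (Ikzf2) and Eos (Ikzf4) are zinc finger factors of the Ikaros family that work with Foxp3. CD73 (Nt5e) makes adenosine from AMP at the cell surface, and the integrin chain CD103 (Itgae) holds lymphocytes to E-cadherin on epithelium. All of the genes other than Foxp3 are also known in lymphocytes that are not regulatory T cells.

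Promoter sequence upstream of a transcription start was found in RefSeq (GRCm38.p6) for 3 of the 7 members, in 4 windows of 250 bases. The pair of Foxp3 windows and the Il2ra window are shown, since most T cells with a Foxp3 UMI also had an Il2ra UMI. TATAAA (the TATA box letters) and TTCNNNGAA (letters bound by STAT factors, either strand) are in capitals.
Foxp3, chrX:7579426-7579675, plus strand: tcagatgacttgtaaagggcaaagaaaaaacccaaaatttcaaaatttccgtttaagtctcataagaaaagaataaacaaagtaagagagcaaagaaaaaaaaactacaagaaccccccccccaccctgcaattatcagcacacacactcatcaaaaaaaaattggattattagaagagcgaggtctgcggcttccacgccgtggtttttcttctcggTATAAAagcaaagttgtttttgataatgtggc
Foxp3, chrX:7580233-7580482, plus strand: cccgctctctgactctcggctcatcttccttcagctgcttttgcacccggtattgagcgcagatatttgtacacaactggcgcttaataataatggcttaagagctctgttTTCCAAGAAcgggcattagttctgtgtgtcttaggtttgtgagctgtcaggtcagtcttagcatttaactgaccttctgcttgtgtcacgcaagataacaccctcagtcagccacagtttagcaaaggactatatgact
Il2ra, chr2:11642542-11642791, plus strand: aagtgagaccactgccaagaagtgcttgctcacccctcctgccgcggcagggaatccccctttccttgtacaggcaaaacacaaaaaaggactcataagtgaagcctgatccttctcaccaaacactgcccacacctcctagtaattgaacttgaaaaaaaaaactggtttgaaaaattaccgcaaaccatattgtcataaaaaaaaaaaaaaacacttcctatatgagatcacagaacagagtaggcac
The first Foxp3 window held 1 match to TATAAA, present in 12.4% of 32851 mouse promoter windows of this length. The second held 1 match to TTCNNNGAA, present in 7.02% of them. The Il2ra window held neither motif, and nor did that of Nt5e, which was 72% G or C. These are matches of letters and were not tested as sites.

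Foxp3 (ENSMUSG00000039521; GRCm38 X:7573644-7595245, plus strand) was rare and lay mostly in T cells. In T, NK and B cells it had 136 UMIs in 59 cells of the control IgG library and 73 UMIs in 28 cells of the antibody library, and every one of these cells was in a T class. NK cells held 0 in 259 and 0 in 311 cells, which allows shares with a UMI of up to 1.16% and 0.965% (3 cells of the total). B cells held 0 in 245 and 0 in 146 cells, which on the same rule allows up to 1.22% and 2.05%. The Tcf7 or Lef1 CD8 T cells, non-cytotoxic cells with a UMI of either of these memory-associated factors, also held 0 in 646 and 0 in 506 cells. Myeloid cells, which should lack Foxp3, had a UMI in 0.0995% and 0.127% of cells at deeper medians of 7278 and 6227 UMIs. Stromal and cancer cells had a UMI in 0.313% of control cells, and 2 control cells that no gate took held 8 UMIs. In all kept cells, 90.7% and 97.3% of Foxp3 UMIs lay in T, NK and B cells. The gene overlaps Flicr on the same strand and Ppp1r3f and Ccdc22 on the opposite one, so some reads could be shared with Flicr.

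Among CD4 T cells, 14 of 699 had a Foxp3 UMI in the control IgG library (interval 1.10-3.34%) and 11 of 571 in the antibody library (1.93%, interval 0.966-3.42%), at median depths of 4305 and 4137 UMIs. These shares lay within each other's intervals. When each cell was thinned to 2000 UMIs, the expected shares were 1.08% and 1.41%, in the opposite order. The level of Foxp3 in CD4 T cells was 9.10 CPM (6.18-12.9) and 12.3 CPM (8.46-17.3), from 31 and 33 UMIs. In the 471 and 433 CD4 T cells without any myeloid or stromal panel UMI it rested on 12 and 28 UMIs, a log2 ratio of 1.39 against 0.43 in all CD4 T cells.

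Most cells with a Foxp3 UMI lay outside the CD4 gate, which required a Cd4 UMI and no Cd8a or Cd8b1 UMI. Of the 59 control cells, 20 were dividing, 21 were T cells that no gate resolved, 14 were CD4, 3 cytotoxic CD8 and 1 other CD8. Of the 28 antibody cells, 11 were CD4, 8 unresolved, 7 dividing and 2 cytotoxic CD8. A Cd4 UMI was present in 36 of the 59 and 16 of the 28 cells, a Cd8a or Cd8b1 UMI in 18 and 5, both in 13 and 2, and neither in 18 and 9. Doublets were kept, and median depth was 6681 UMIs in control cells with Foxp3 against 4884 in T cells without, and 4529 against 4255 in the antibody library.

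Over all T classes the share with a Foxp3 UMI was 1.10% (0.841-1.42) of 5345 control cells and 0.662% (0.440-0.955) of 4230 antibody cells, a log2 ratio of -0.74 (-1.44 to -0.07). The intervals of the pair of shares overlapped, and that of the ratio ended just below 0. After thinning to 2000 UMIs the shares were 0.592% and 0.432%, with 117 and 159 shallower cells left out. With at least 2 Foxp3 UMIs the counts were 40 and 17 cells, 0.748% and 0.402%. Without the deepest 5% of cells, or without cells holding a myeloid or stromal UMI, the interval of the ratio included 0 (-1.39 to 0.09 and -1.46 to 0.28). The unresolved T cells had the widest gap in Foxp3 level among classes with enough UMIs to compare, from 10.5 CPM (43 UMIs) to 4.03 CPM (12 UMIs), a log2 ratio of -1.38 (-2.44 to -0.43). Dividing T cells were at 2.76 and 2.62 CPM, with 47 and 25 UMIs.

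**Figure D1:**
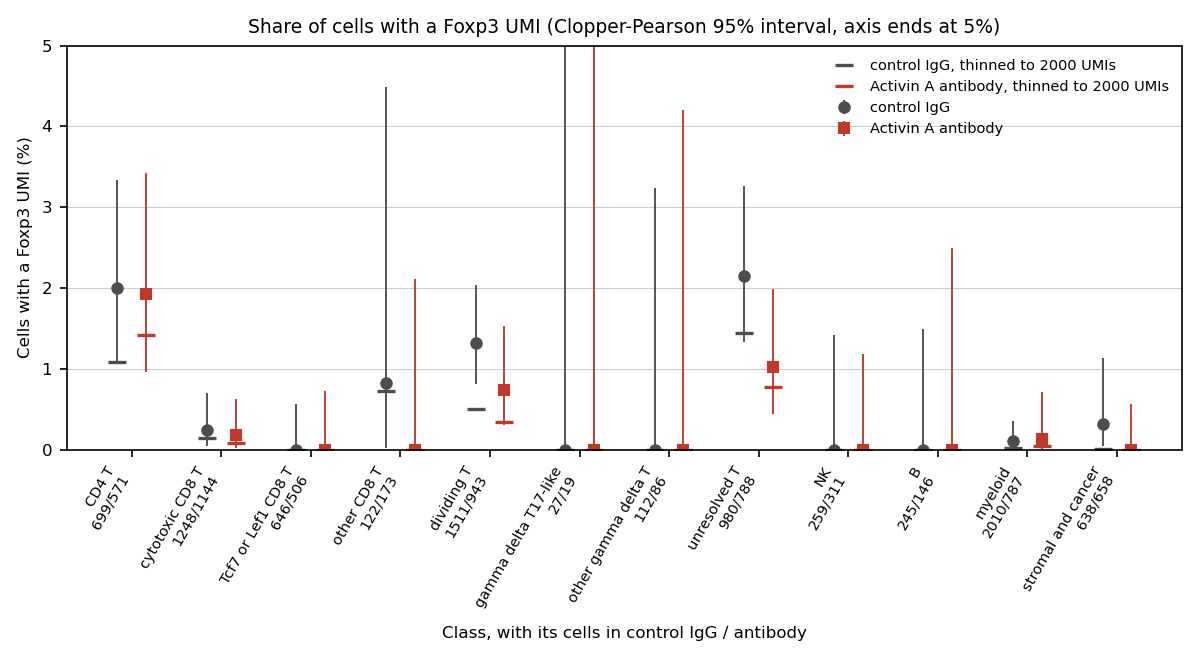
Percent of cells of each class with at least 1 Foxp3 UMI in the control IgG (grey circles) and Activin A antibody (red squares) libraries, with Clopper-Pearson 95% intervals; dashes are the expected share after thinning each cell to 2000 UMIs. CD4, dividing and unresolved T cells hold nearly all Foxp3 cells, with 14 of 699 and 11 of 571 CD4 T cells; the intervals of the small gamma delta T17-like class run past the top of the axis.

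Read together in all T, NK and B cells, 1 of the 7 members, Itgae, lay beyond 1.5-fold between the libraries, and it was higher with the antibody. Of 14804 genes with at least 20 UMIs, 10.9% lay beyond 1.5-fold in either direction and 5.86% were higher, and the median log2 ratio was 0.03. The log2 ratios of antibody over control IgG were 0.66 (0.49-0.82) for Itgae, 0.44 (0.11-0.77) for Ikzf4, 0.30 (0.26-0.35) for Ikzf2, 0.28 (0.24-0.31) for Il2rb and 0.23 (0.14-0.33) for Nt5e. Il2ra stood at -0.01 (-0.14 to 0.12) and Foxp3 at -0.34 (-0.77 to 0.08), both with intervals that included 0. With the classes weighted as in the control IgG library, the ratio of Itgae was 0.56, under 1.5-fold, that of Ikzf2 0.27 and that of Foxp3 -0.35.

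In CD4 T cells, 2 of the 7 members lay beyond 1.5-fold, both higher with the antibody, against 13.6% of 10324 genes in either direction and 6.72% higher. Ikzf4 had 17 UMIs with control IgG and 28 with the antibody, 4.99 and 10.4 CPM, a log2 ratio of 1.06 (0.14-2.02). Itgae had 18 and 26 UMIs, 5.29 and 9.68 CPM, a log2 ratio of 0.87 (-0.05 to 1.83). Both rest on few molecules, and the interval of Itgae included 0. Foxp3 stood at 0.43 (-0.32 to 1.19) and Il2ra at 0.30 (-0.05 to 0.65). Il2rb stood at 0.30 (0.19-0.42), Nt5e at 0.27 (0.01-0.53) and Ikzf2 at 0.26 (0.13-0.39).

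The classes differed in how many members they held beyond 1.5-fold, and so did the share of all genes. Cytotoxic CD8 T cells had 2 of 6 members with enough UMIs (Ikzf2 and Itgae, both higher with the antibody), where 11.6% of genes were beyond this limit. Unresolved T cells had 2 of 7, Foxp3 and Itgae, both lower, where the share of genes was 12%. Dividing T cells had 0 of 7 (10.7% of genes) and Tcf7 or Lef1 CD8 T cells 0 of 5 (13.4%). NK cells had 1 of 4, Il2ra, which was lower (15.4%). The small classes had wider backgrounds, with 3 of 5 members in other CD8 T cells (20.4%), 2 of 4 in other gamma delta T cells (23%), 3 of 3 in gamma delta T17-like cells (31.5%) and 3 of 4 in B cells (23.2%), all higher.

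**Figure D2:**
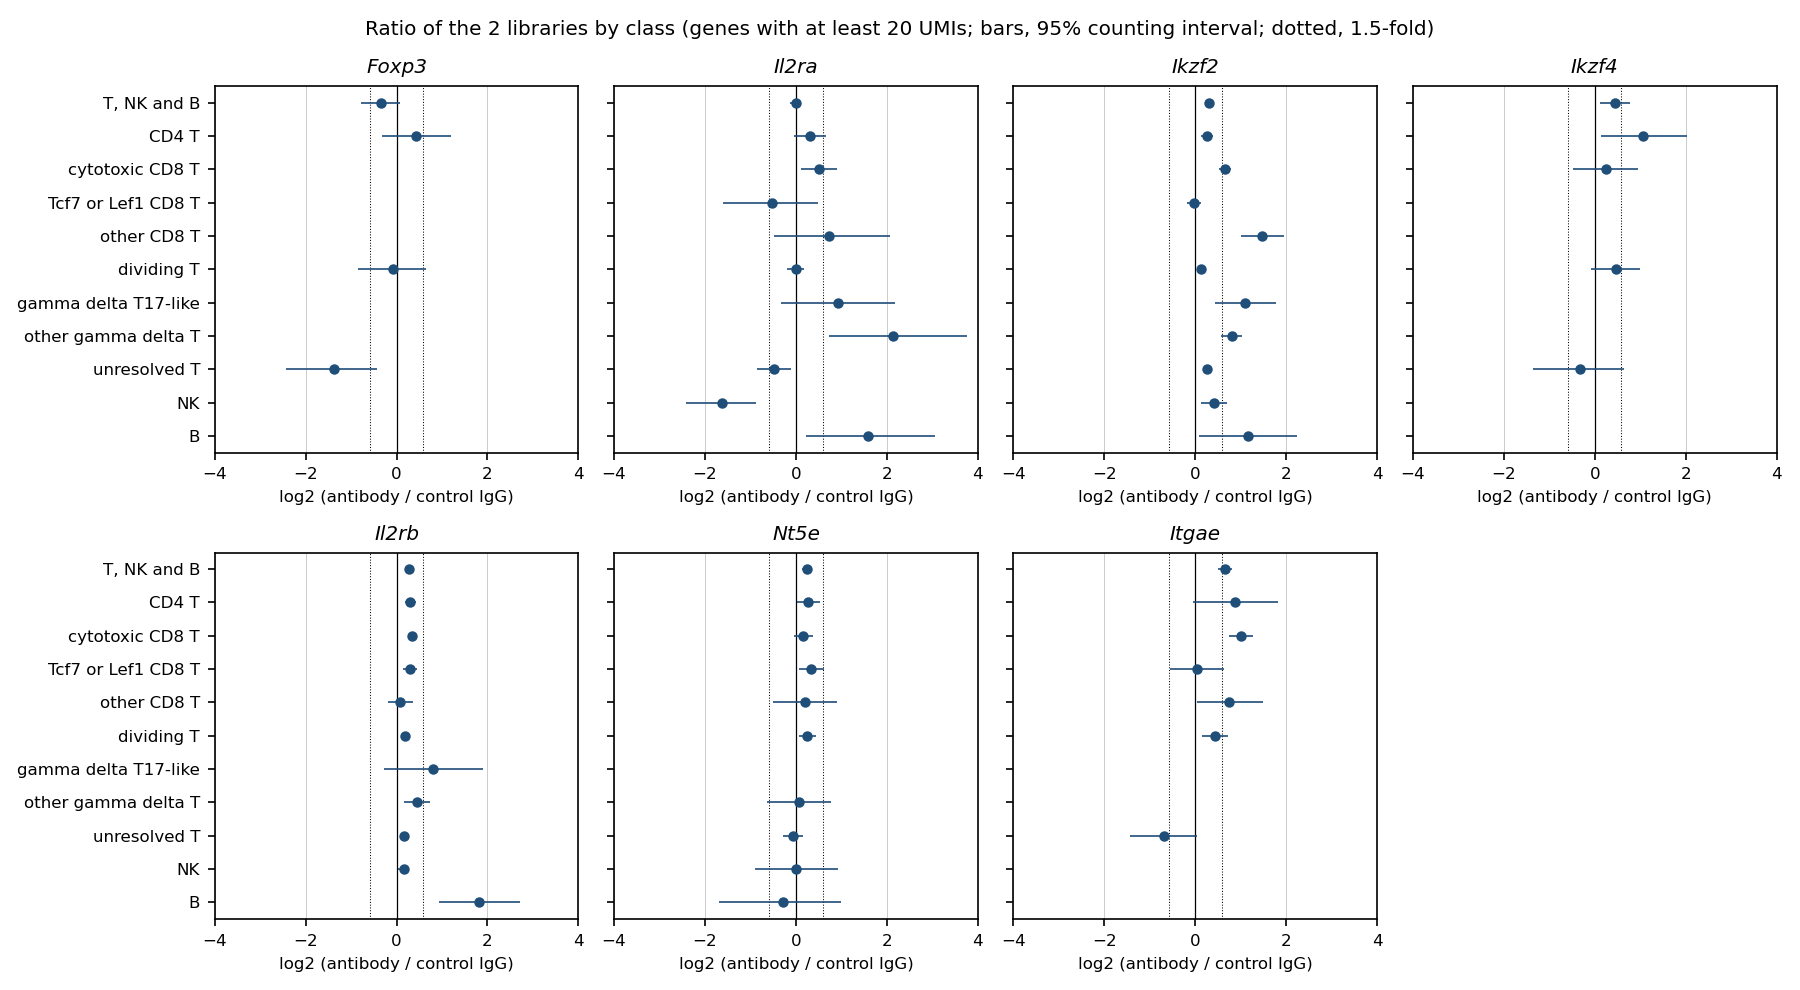
Log2 ratio of antibody over control IgG for each gene and class with at least 20 UMIs, with 95% counting intervals; dotted lines mark 1.5-fold. Itgae in cytotoxic CD8 T cells sits at 1.00, Foxp3 in unresolved T cells at -1.38, and the Il2ra points of NK (-1.62) and other gamma delta T cells (2.13) rest on UMIs that few cells hold.

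Il2ra (2:11642807-11693193, plus strand), the high-affinity chain of the interleukin 2 receptor, was at 32.1 CPM (30.3-33.9) in control and 31.9 CPM (29.7-34.1) in antibody T, NK and B cells. Dividing T cells held more of its UMIs than any other class, 646 of 1198 in the control IgG library and 362 of 810 in the antibody library, at 37.9 CPM in both libraries. By level, the small gamma delta T17-like class (Trdc with T17 panel genes such as Il17a; 27 and 19 cells) was highest at 143 CPM (73.8-249) and 271 CPM (145-464), from 12 and 13 UMIs. CD4 T cells were at 41.4 CPM (34.9-48.8) and 51.0 CPM (42.8-60.3), and the second of these lay above the intervals of dividing (34.1-42.0) and unresolved T cells (26.1-39.3) in the antibody library. A single antibody CD4 T cell held 21 of the 137 Il2ra UMIs of its class, so this order may rest on that cell. In the control IgG library CD4, dividing and unresolved T cells had intervals that overlapped. Unresolved T cells were at 44.8 and 32.2 CPM, cytotoxic CD8 T cells at 15.4 and 21.9, and Tcf7 or Lef1 CD8 T cells at 9.72 and 6.76. The share of cytotoxic CD8 T cells with an Il2ra UMI was 6.09% and 6.47%.

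Several gaps of Il2ra between the libraries were set in part by single cells. In NK cells it went from 62 to 21 UMIs, 49.6 CPM (38.0-63.6) to 16.1 CPM (9.96-24.6), a log2 ratio of -1.62 (-2.41 to -0.89). A single control NK cell held 22 of the 62 UMIs, and 18 of 259 cells (6.95%) against 15 of 311 (4.82%) had any. Without the cell with most UMIs in each library the log2 ratio in NK cells was -1.32 (-2.23 to -0.47), on 40 and 17 UMIs. In other gamma delta T cells it went from 6 to 18 UMIs, but 1 cell held 17 of the 18, and without the top cells the ratio turned from 2.13 to -1.04 on 3 and 1 UMIs. A single control cell of the unresolved class held 35 of its 184 UMIs, and without the top cells that class moved from -0.48 to -0.28 (-0.68 to 0.11). In B cells, on 8 and 13 UMIs, the ratio was 1.59 (0.21-3.07), and 1.72 (-0.01 to 3.64) without the top cells.

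Il2rb (15:78479256-78495271, minus strand), the signalling chain that the interleukin 2 and interleukin 15 receptors share, was widespread. It was highest in NK cells, at 923 CPM (870-978) with control IgG and 1029 CPM (975-1086) with the antibody, and 93.4% and 92.9% of NK cells had a UMI. Other gamma delta T cells were at 499 CPM (436-569) and 682 CPM (593-781), and unresolved T cells at 435 CPM (415-455) and 490 CPM (465-516). The intervals of this pair overlapped in the control IgG library. In the antibody library that of unresolved T cells overlapped that of cytotoxic CD8 T cells (471-508). Cytotoxic CD8 (388 and 489 CPM), dividing (383 and 434) and CD4 T cells (366 and 452) lay close together, and Tcf7 or Lef1 CD8 T cells were lower at 282 and 348. Other CD8 T cells were at 395 and 417 CPM, and the small T17-like class at 190 and 334, from 16 UMIs in each library. B cells held 15.9 and 55.5 CPM, from 18 and 34 UMIs, and 14 of the 34 lay in 1 cell. Every T and NK class was numerically higher with the antibody, by log2 ratios of 0.08 to 0.81. The intervals of other CD8 T cells (-0.20 to 0.36) and T17-like cells (-0.28 to 1.91) included 0. In other CD8 T cells the 0.08 stood beside a median of 0.06 over all genes tested. The level in barcodes with under 100 UMIs, taken as free RNA, also differed, at 117 CPM in the control IgG and 178 CPM in the antibody library. Free RNA made up at most 4.25% and 2.90% of the UMIs of T, NK and B cells.

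Ikzf2 (1:69531214-69687245, minus strand) was not confined to cells with Foxp3. It had 9730 UMIs in 2076 control cells and 8169 UMIs in 1800 antibody cells of the T, NK and B classes. Cells with a Foxp3 UMI, 1.01% and 0.597% of all T, NK and B cells, held 8.99% and 5.34% of these UMIs. The highest levels were in unresolved T cells, 792 CPM (765-819) and 942 CPM (908-978), and in other gamma delta T cells, 588 CPM (519-663) and 1020 CPM (910-1139). The T17-like cells were at 440 and 940 CPM, with intervals that overlapped those of other gamma delta T cells in each library. CD4 T cells were at 290 and 346 CPM, Tcf7 or Lef1 CD8 T cells at 307 and 303, dividing T cells at 195 and 213, and cytotoxic CD8 T cells at 120 and 188. B cells were at 13.2 and 29.4 CPM, from 15 UMIs in 7 cells and 18 UMIs in 4 cells. The free RNA itself was at 49.7 and 64.1 CPM, and it made up at most 4.12% and 2.83% of B cell UMIs.

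Between the libraries, Ikzf2 in cytotoxic CD8 T cells rested on 811 and 1016 UMIs, a log2 ratio of 0.65 (0.51-0.78). It was 1 of 2 members beyond 1.5-fold among the 6 tested there, where 11.6% of 11312 genes were. Its share of these cells was 21.2% and 26.7%, and 12.1% and 16.8% after thinning. The small class of other CD8 T cells (122 and 173 cells) went from 104 to 286 CPM, from 50 and 175 UMIs, a log2 ratio of 1.46 (1.00-1.94). Tcf7 or Lef1 CD8 T cells stood at -0.02 (-0.18 to 0.13). Whether reads in introns were counted is not given in the sources used here, and Ikzf2 is 156032 bases long and overlaps Gm29112 and Gm28112 on its strand.

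The Ikzf2-rich unresolved T cells were mostly cells with neither a Cd4 nor a Cd8 UMI, 901 of 980 and 740 of 788. In these, Klra7, an inhibitory Ly49 receptor of NK and innate-like T cells, had a UMI in 25.0% and 23.6% of cells, against 0.572% of control CD4 T cells. The adaptor Fcer1g had a UMI in 35.0% and 30.7% of them. At 2000 UMIs, Klra7 was found in 31.9% of the cells with an Ikzf2 UMI and 8.72% of those without in the control IgG library. In the antibody library the same shares were 32.5% and 7.35%. Klra1, a related receptor, showed 14.8% against 4.18% and 15.5% against 2.75%. Fcer1g and the receptors Klrb1c and Klre1 were also found more often with Ikzf2. The gap was narrow for the transcription factor Zbtb16, at 5.96% against 4.91% and 5.02% against 3.42%. By level, the adaptor Tyrobp was lower with Ikzf2 in the control IgG library (229 against 311 CPM) and higher in the antibody library (323 against 244 CPM). All 16 and all 7 cells with a Foxp3 UMI among them also had an Ikzf2 UMI. These cells were left without a cell type name, since no fixed panel names them.

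Ikzf4 (10:128630843-128645991, minus strand) was low and spread over more cells than Foxp3, with 160 UMIs in 137 control cells and 148 UMIs in 134 antibody cells of the T, NK and B classes. Of its UMIs, 10.6% and 6.76% lay in cells with a Foxp3 UMI, which were 1.01% and 0.597% of T, NK and B cells. Cytotoxic CD8 T cells held 36 and 34 UMIs, 5.33 and 6.30 CPM, and dividing T cells 70 and 54, 4.11 and 5.65 CPM. The intervals of CD4, cytotoxic CD8, dividing and unresolved T cells overlapped in each library, so their order is not resolved. B cells held 0 UMIs in both libraries.

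Nt5e (9:88327197-88372092, plus strand) was spread over T classes and low in NK and B cells. It was at 96.7 and 92.6 CPM in unresolved T cells, 95.8 and 101 in other gamma delta T cells, 84.1 and 107 in Tcf7 or Lef1 CD8 T cells and 76.9 and 92.8 in CD4 T cells. The intervals of these 4 classes overlapped in the antibody library. Cytotoxic CD8 T cells were at 60.7 and 67.8 CPM, dividing T cells at 32.7 and 38.9, NK cells at 17.6 in both libraries and B cells at 15.9 and 13.1. No T, NK or B class with at least 20 UMIs lay beyond 1.5-fold, and the ratios ran from -0.28 in B cells to 0.34 (0.06-0.62) in Tcf7 or Lef1 CD8 T cells. Of its UMIs in all kept cells, 74.2% and 83.5% lay in T, NK and B cells, so other cells held it too.

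Itgae (11:73090583-73147446, plus strand), the alpha chain that pairs with Itgb7, was highest in CD8 T cells among classes with at least 20 UMIs. Its level was 52.0 and 86.7 CPM in other CD8 T cells and 29.8 CPM (25.8-34.2) and 59.3 CPM (53.0-66.2) in cytotoxic CD8 T cells. Tcf7 or Lef1 CD8 T cells were at 21.7 and 22.4 CPM, dividing T cells at 14.3 and 19.2, and CD4 T cells at 5.29 and 9.68. The log2 ratio in cytotoxic CD8 T cells was 1.00 (0.74-1.26), from 201 and 320 UMIs, higher than in 98.9% of the genes tested in that class. The share of these cells with a UMI was 8.89% and 13.8%, and 4.33% and 8.13% after thinning, and no cell held more than 7 and 10 of the UMIs. The T17-like class held 8 and 1 UMIs, too few to compare. Dividing T cells showed 0.43 (0.14-0.71), Tcf7 or Lef1 CD8 T cells 0.04 (-0.56 to 0.64) and unresolved T cells -0.68 (-1.44 to 0.04). Cytotoxic CD8 T cells held 32.8% of the control and 48.7% of the antibody UMIs of Itgae in T, NK and B cells.

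**Figure D3:**
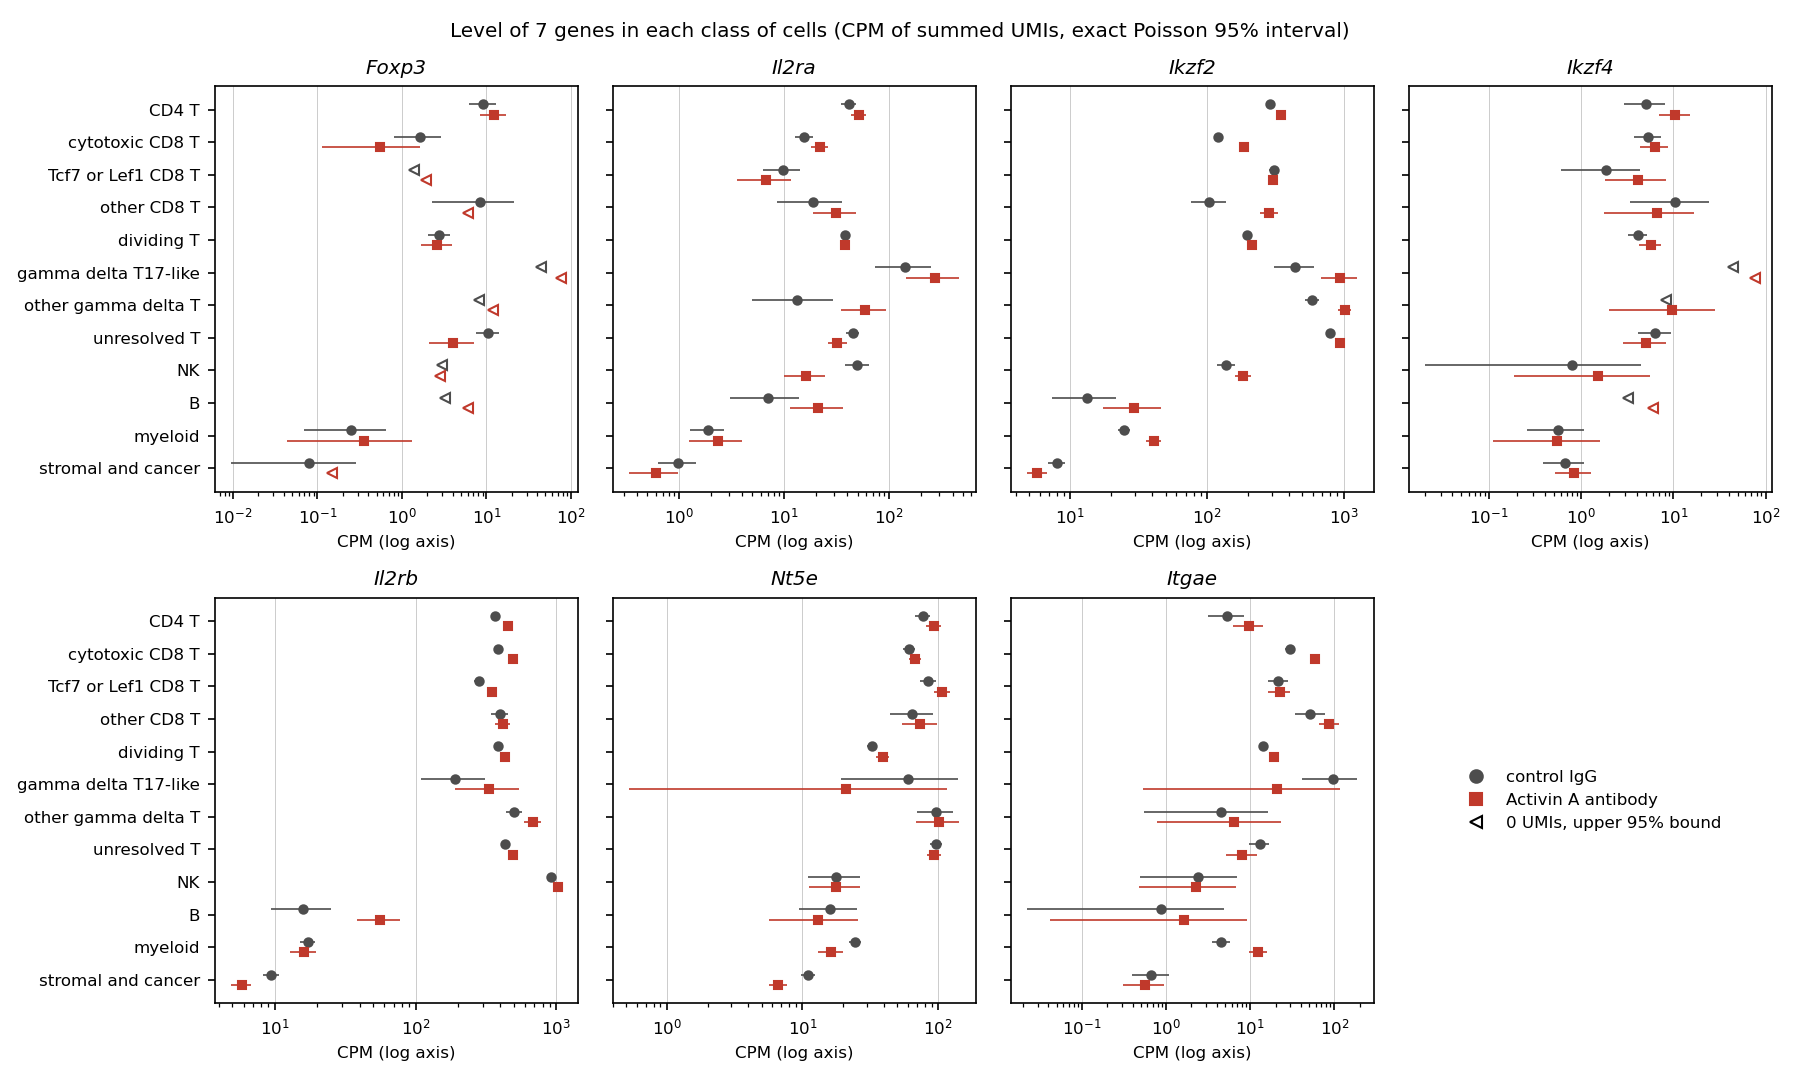
CPM of summed UMIs (log axis) of each gene by class in the control IgG (grey circles) and Activin A antibody (red squares) libraries, with exact Poisson 95% intervals; open triangles mark the upper bound where a class held 0 UMIs. Foxp3 is seen in a few T classes, Il2rb peaks in NK cells at 923 and 1029 CPM, Ikzf2 in unresolved and other gamma delta T cells, and Itgae in CD8 classes.

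T cells with a Foxp3 UMI were compared with T cells without one, in each library on its own. Of the cells with Foxp3, 19 of 59 and 11 of 28 held a single Foxp3 UMI. Cells without one can therefore include cells in which Foxp3 was missed. Over all T classes, 4 of the other 6 members (Il2ra, Ikzf2, Ikzf4 and Itgae) were higher beyond 1.5-fold in cells with Foxp3 in both libraries, against 18.5% and 19.1% of the genes tested. Il2ra was at 503 CPM (441-571) against 25.7 in the control IgG library and at 269 CPM (201-351) against 31.0 in the antibody library, log2 ratios of 4.29 and 3.11. A single control cell held 47 of the 240 Il2ra UMIs behind the first of these levels, and an unresolved control cell held 35. In the antibody library no cell with Foxp3 held more than 7 of the 53. The gap between the libraries without these cells was not tested. Ikzf2 was at 1834 against 251 CPM and 2209 against 321 CPM, log2 ratios of 2.87 and 2.78. Ikzf4 was at 35.6 against 4.12 CPM and 50.7 against 5.83 CPM, log2 ratios of 3.11 and 3.12, from 17 and 10 UMIs in cells with Foxp3. Itgae was at 29.3 against 17.2 CPM and 81.1 against 27.3 CPM, a log2 ratio of 0.77 (-0.11 to 1.52) and of 1.57 (0.75-2.28). Il2rb, at 0.43 and 0.08, and Nt5e, at 0.38 and 0.39, stayed under 1.5-fold.

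Ikzf2 and Il2ra were often seen together in cells with Foxp3. Of the 59 control cells with a Foxp3 UMI, 56 had an Ikzf2 UMI, 45 an Il2ra UMI and 43 both. Of the 28 antibody cells, 26 had Ikzf2, 19 had Il2ra and 19 both. Both were present in 72.9% and 67.9% of cells with Foxp3, against 5.01% and 4.78% of T cells without it. Read the other way, 45 of 553 control T cells with an Il2ra UMI (8.14%) and 19 of 394 antibody T cells (4.82%) also had a Foxp3 UMI. After thinning to 2000 UMIs, Il2ra was found in 44.4% and 44.6% of cells with Foxp3 and in 3.46% and 3.91% of cells without.

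Within CD4 T cells alone, where 18.6% and 24.4% of genes were higher beyond 1.5-fold, the 14 and 11 cells with Foxp3 showed the same order for Il2ra and Ikzf2. Il2ra was at 639 against 24.7 CPM and 355 against 43.9 CPM, and Ikzf2 at 3337 against 205 CPM and 3014 against 283 CPM. A single control cell held 84 of the 308 Ikzf2 UMIs. Itgae in these cells rested on 5 and 6 UMIs in 2 cells of each library, under the 20 UMIs needed for a count in the control IgG library, 54.2 against 3.92 CPM and 96.7 against 7.63 CPM. Ikzf4 rested on 1 and 3 UMIs, with log2 ratios of 1.17 (-4.22 to 3.85) and 2.34 (-0.03 to 4.06). It too was under 20 UMIs in the control IgG library, with 17 in all CD4 T cells. Il2rb was 0.81 (0.40-1.19) and 0.15 (-0.42 to 0.66), and Nt5e 0.18 (-1.05 to 1.18) and 0.66 (-0.48 to 1.61).

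**Figure D4:**
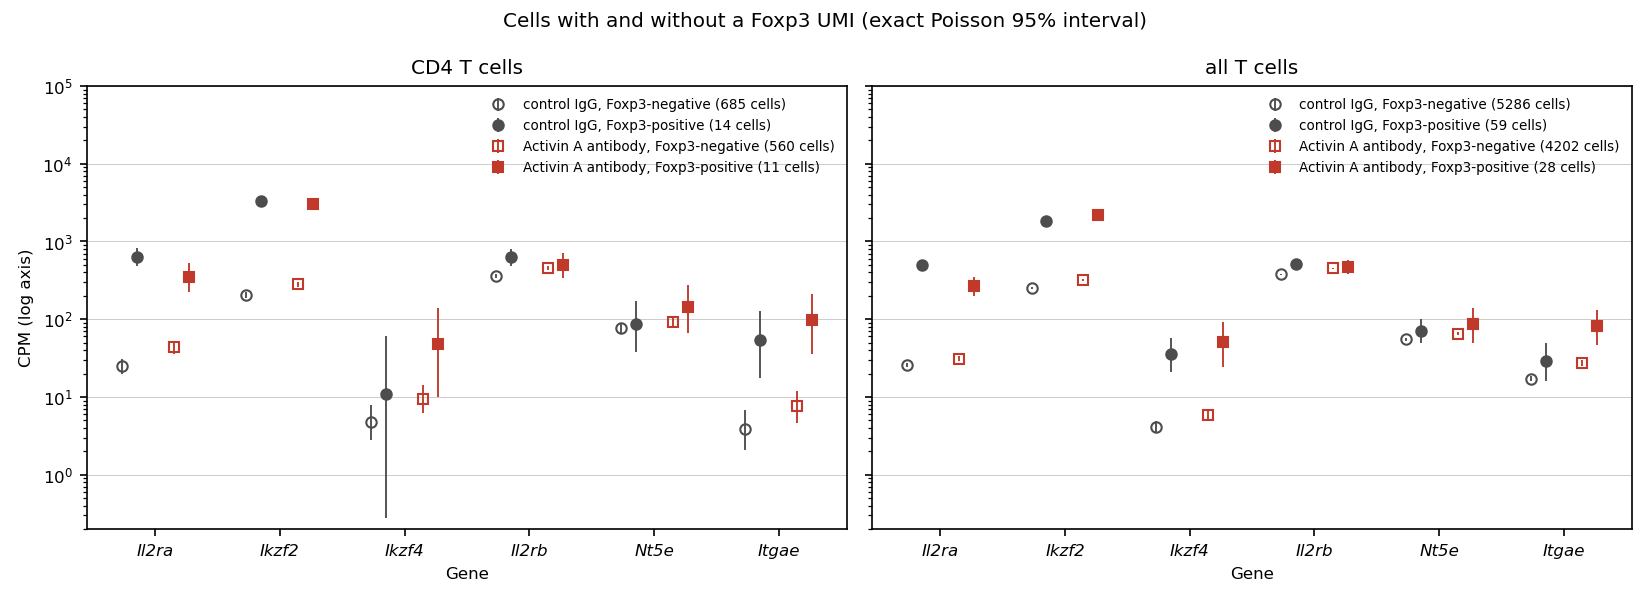
CPM (log axis) of the other 6 genes in cells with (filled) and without (open) a Foxp3 UMI in the control IgG (grey circles) and Activin A antibody (red squares) libraries, in CD4 T cells (left) and all T cells (right), with exact Poisson 95% intervals. Il2ra and Ikzf2 stand apart in every pairing, as at 503 against 25.7 CPM for Il2ra in control T cells, while Il2rb and Nt5e differ by less than 1.5-fold in all T cells.

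Genes known from regulatory T cells were read in the same split. Of a list of 18 surface and effector genes, 16 and 15 had at least 20 UMIs over all T cells, and 14 in each library were higher beyond 1.5-fold in cells with Foxp3, 13 of them in both, where 18.5% and 19.1% of all genes were. Within CD4 T cells 14 and 13 genes had enough UMIs, 10 and 11 were higher, and 9 were higher in both, against 18.6% and 24.4% of all genes. The chemokine receptor Ccr8 had 0 UMIs in the 14 and 11 CD4 T cells with Foxp3, and 29 and 35 in the 685 and 560 without. So few cells with Foxp3 cannot show whether they lack it. Over all T cells Ccr8 was among the genes higher beyond 1.5-fold with Foxp3 in both libraries. Lrrc32, which holds latent TGF beta at the cell surface, had 18 of 20 and 8 of 13 T cell UMIs in cells with Foxp3. Izumo1r, the folate receptor 4 of regulatory and some other CD4 T cells, was at 233 against 18.6 CPM and 263 against 17.5 CPM over all T cells. The cytokine Il10 was at 96.4 against 5.25 CPM and 81.1 against 6.26 CPM, and the inhibitory receptor Ctla4 at 1279 against 262 CPM and 785 against 315 CPM. Itgb8, the integrin chain that releases active TGF beta, was at 103 against 2.09 CPM and 50.7 against 1.67 CPM, from 49 and 10 UMIs. Over all T cells the transcription factor Bach2 was lower in both libraries, at 107 against 278 CPM and 142 against 287 CPM. Within CD4 T cells, the list of 8 Foxp3 regulators that holds Bach2 had 0 genes lower beyond 1.5-fold in both libraries.

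The 10 genes ranked highest by fold in CD4 T cells with Foxp3, taking the lower of the 2 libraries' folds, were Tnfrsf9, Ikzf2, Klrg1, Il10, Cep112, Neb, Il2ra, Itgam, Gzmb and Ighm. Ikzf2 and Il2ra were 2 of the 10 among 1520 genes ranked. Only genes with at least 20 UMIs in these cells with Foxp3, over both libraries, were ranked. This filter lets genes in through the group in which they are high, so the ranks are descriptions. Over all T cells, under the same filter, the 10 genes were Frmd5, Izumo1r, Neb, Tnfrsf4, Il2ra, Ikzf2, Tnfrsf9, Klrg1, Il10 and Dst. Tnfrsf9, the costimulatory receptor 4-1BB, was at 528 against 49.4 CPM and 471 against 71.4 CPM over all T cells. The 12 myeloid panel genes summed to 92.2 CPM in T cells with Foxp3 against 67.6 without in the control IgG library, and to 25.3 against 41.2 in the antibody library. The 5 B panel genes summed to 23.1 against 16.8 CPM and to 5.07 against 9.05 CPM. The part of these other cell types in the ranking of genes such as Itgam and Ighm was not tested.

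Other genes of the members' pathways were read in CD4 T cells from 6 lists. Of 9 genes of interleukin 2 signalling, 3 were higher beyond 1.5-fold with the antibody and 0 lower, where 6.72% of all genes in CD4 T cells were higher and 13.6% were beyond 1.5-fold. The median log2 ratio of the list was 0.45 against 0.01 for all genes. These were Il2 itself (15 and 26 UMIs; 1.14, 0.17-2.16) and the feedback inhibitors Cish (0.99, 0.69-1.29) and Socs1 (0.76, 0.49-1.04). Cish was at 45.5 and 90.1 CPM and Socs1 at 55.8 and 94.6 CPM. The other 6 genes stayed under 1.5-fold, among them the transcription factor Stat5a at 0.55, the kinase Jak3 at 0.45, the shared chain Il2rg at 0.04 and the kinase Jak1 at -0.14.

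Of the 3 other Ikaros genes (Ikzf1 at -0.06, Ikzf3 at -0.04, Ikzf5 at -0.31), 0 lay beyond 1.5-fold. The same held for 4 of 5 adenosine genes that could be read, among them the receptor Adora2a at 0.48 (0.05-0.92) and the ATP-degrading Entpd1 at 0.12. It held too for the 4 genes of the integrin list (Itgb7, Cdh1, Itgav and Itgb8), of which Itgb7 is the chain that pairs with Itgae. Itgb7 was at -0.29 (-0.45 to -0.12), Cdh1 at -0.43 and Itgb8 at -0.44. Of the 8 regulators of Foxp3, 1 was higher, the NF-kB member Rel at 0.71 (0.53-0.89), from 132 to 215 CPM. Of 15 regulatory T cell surface and effector genes with enough UMIs, 4 were higher (Areg 0.96, Il1rl1 0.78, Ccr4 0.78 and Ccr8 0.61) and 3 lower (Klrg1 -1.55, Il10 -0.90 and Nrp1 -0.59). Klrg1, a receptor of terminally differentiated cells, had 63 and 17 UMIs, of which 30 and 7 lay in the 14 and 11 cells with Foxp3. The intervals of Ccr4 and Ccr8 included 0. These counts stand beside the same 13.6% of all genes, 6.72% higher.

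The genes most like each member were taken by Pearson correlation of log2(CPM + 10) over 18 profiles, 9 classes of at least 50 cells in each library, among 10505 genes. These profiles share libraries and depth, so the values are descriptions. Foxp3 had 0 UMIs in Tcf7 or Lef1 CD8 T, other gamma delta T, NK and B cells of both libraries. It reached at most 12.3 CPM and Ikzf4 at most 10.4 CPM in any profile, near the 10 added. The correlations of these genes therefore rest on few UMIs. For Foxp3 they were Galnt9 (0.91), Gm15283, Ccr8 (0.89), L1cam and Dnajc6. Those for Il2rb, headed by Tbx21 (0.98) and Lrrfip1 (0.98), with Rbms1, Rap2a and Il18rap, were the closest. Il2ra was led by Furin (0.79) and Hilpda (0.77), Ikzf2 by Klf6 (0.92) and Hdac4 (0.91), Ikzf4 by Mex3c (0.91) and Jak3 (0.87), Nt5e by Dgka (0.95) and Ehd3 (0.95), and Itgae by Gm44175 (0.92) and Klf8 (0.91). Among the members themselves, Ikzf2 and Nt5e were closest (0.78), then Ikzf2 and Il2rb (0.71), while Foxp3 reached 0.60 with Ikzf4, 0.47 with Il2ra and 0.26 with Ikzf2.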

How the data were processed

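Raw UMI counts were deposited by the authors for 32285 mouse genes and all barcodes, neither normalized nor reduced to called cells. The file headers name Cell Ranger 4, while the submitters' processing notes name Cell Ranger 7.0.1 and the build mm10. Gene positions came from the GRCm38 annotation, with 99.8% of 32285 identifiers matched. Kept cells had 1000 to 8500 detected genes, 1000 to 100000 UMIs, and no more than 10% of UMIs from mitochondrial genes, and doublets were not removed.

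Each cell was gated on raw UMIs of marker panels. NK, T and B cells needed at least 2 genes of their own panel and a panel sum above the myeloid and stromal sums. NK cells were taken first and held no Cd3d or Trac UMI. The T and B panel sums were also set against each other, but the T sum was not set against the NK sum. T cells were then taken, in this order, as dividing, gamma delta (Trdc without Trac), CD8 or CD4, and the rest as unresolved. UMIs were summed per class and library and given as CPM. Genes with at least 20 UMIs were compared, and 1.5-fold was the limit for a call. The comparisons are of 1 library with 1 library, so no test was run.

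Shares were also computed for thinning each cell to 2000 UMIs. Free RNA was read from barcodes with under 100 UMIs. By the myeloid and stromal panels it made up at most 4.25% and 2.90% of the UMIs of T, NK and B cells. Pathway genes came from 6 lists. In CD4 T cells up to the 3 genes with the largest absolute log2 ratio were named per list; genes named beside these were chosen after their values were seen. Per member, the 5 most alike genes were ranked among those with at least 200 UMIs. Genes of cells with Foxp3 were ranked by fold of CPM + 10, among those with at least 20 UMIs in cells with Foxp3 over both libraries. The members and lists were chosen with earlier results of these data known. Alternatives changed the gates, filters, depth and scaling. Ratios and thinned shares were tested on simulated data. The simulated counts for ratios varied by counting error alone, so they do not check intervals where few cells hold many UMIs. Python 3.11.15, numpy 2.4.6, scipy 1.17.1 and pandas 2.3.3 were used.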

Additional observations from a re-analysis of the deposited data

Results flagged for a closer look

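Il2ra had log2 ratios of antibody over control IgG whose intervals lay on opposite sides of 0 in different classes. It was 0.51 in cytotoxic CD8 T cells, 1.59 in B cells (8 and 13 UMIs) and 2.13 in other gamma delta T cells, and -0.48 in unresolved T cells and -1.62 in NK cells. The difference between classes was not tested, and 1 cell held 17 of the 18 antibody UMIs in other gamma delta T cells. Without the top cells that class turned to -1.04, and the intervals of B (-0.01 to 3.64) and unresolved T cells (-0.68 to 0.11) included 0. Cytotoxic CD8 T cells were then at 0.52 (0.11-0.94) and NK cells at -1.32 (-2.23 to -0.47).

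Cells that no gate took (273 and 254) were outside every comparison above. In them Nt5e went from 15 to 56 UMIs, 10.4 CPM (5.81-17.1) to 39.3 CPM (29.7-51.1), a log2 ratio of 1.92 (1.08-2.85) that stood above the control library. Il2rb in these cells was at 126 and 180 CPM, a log2 ratio of 0.51 (0.23-0.80). Ikzf2 was lower there, at -0.61 (-0.96 to -0.26), and so was Itgae, from 21 to 8 UMIs, at -1.37 (-2.76 to -0.14). Foxp3 had 8 UMIs in 2 control cells and 0 in the antibody library.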

How the results depend on the processing

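No paired analysis was possible because there is 1 library of pooled mice a group, and no replicate could be left out. Over all T, NK and B cells, 79 of 84 values under other settings lay within the counting interval of the value reported. Without cells holding any myeloid or stromal UMI, Il2ra was 0.23 and Il2rb 0.35. With each cell weighing the same, Ikzf2 was 0.36 and Il2rb 0.34, and with the class mix of control IgG Il2rb was 0.23. Itgae ranged from 0.56 to 0.80.

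In CD4 T cells, 73 of 77 lay within the interval. Without any myeloid or stromal UMI, Foxp3 was 1.39 (12 UMIs in 471 cells and 28 in 433) and Itgae 1.98 (6 and 21 UMIs). Il2ra was -0.060 with each cell weighing the same, and Ikzf2 0.43 without the deepest 5% of cells. The control share with Foxp3 was 1.08% when thinned. Itgae in cytotoxic CD8 T cells ranged from 0.90 to 1.09 under alternatives chosen after seeing the data. The ratio of the share of all T cells with Foxp3 ranged from -0.90 to -0.45, and its interval included 0 without myeloid or stromal UMIs (-1.46 to 0.28) and without the deepest cells (-1.39 to 0.09).

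For CD4 T cells with Foxp3 over those without, 134 of 152 lay within the interval and 15 outside it. The other 3 changed direction from a value beyond 1.5-fold and were counted apart, even where inside the interval. In the control IgG library, Il2ra was 5.27 with each cell weighing the same. Ikzf2 was 3.68 without myeloid or stromal UMIs, 3.72 without the deepest cells, 3.78 without the top cell and 2.87 over all T cells. Itgae was 1.55 without the top cell and 0.77 over all T cells, and Nt5e went from 0.18 to -0.76 without the top cell. In the antibody library, Il2ra was 3.70 without myeloid or stromal UMIs. Under the same settings, Ikzf2 was 3.72, 3.75, 3.69 and 2.78, and 3.77 with each cell weighing the same. Itgae was 1.17 without the top cell and 1.57 over all T cells. Nt5e turned to -0.14 without myeloid or stromal UMIs, -0.80 without the top cell and -1.02 with at least 2 Foxp3 UMIs. Il2ra in other gamma delta T cells turned to -1.04 without the top cells. The cause of these shifts was not tested. Settings with the top cell left out, shared barcodes left out, all T cells or the class mix were chosen after seeing the data. Depth limits Foxp3, Ikzf4 and Itgae in CD4 T cells most, since each rests on under 35 UMIs a library.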
